A study of Rattus norvegicus with 69 samples.

Results

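The 45 genes described here act in the urea cycle and in amino acid breakdown in the rat liver, and come from a table of read counts for 38513 genes. Members were the genes whose symbol in that table equalled one of 45 listed names, and all 45 were found. By enzyme class they comprised 7 genes of the urea cycle, 8 of transamination and glutamate, 4 of phenylalanine and tyrosine breakdown, 5 of tryptophan, 4 of histidine, 2 of serine and threonine, 7 of the branched-chain amino acids, 2 of lysine and sarcosine and 6 of methionine. The study asked whether liraglutide and PYY, given together, have the effect of a gastric bypass on the fatty liver of obese rats.

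Livers came from male Wistar rats, and obesity was induced with a high-fat diet in the groups the study describes. There were 14 libraries after Roux-en-Y gastric bypass (RYGB), 8 of a group labelled BWM, 6 of a group labelled Lean and 12 after sham operation. The drug arms held 11 libraries of liraglutide+PYY, 5 of PYY alone, 5 of liraglutide alone and 8 of saline. Liraglutide is an analogue of the gut hormone GLP-1 and was injected under the skin, and PYY is a gut hormone delivered by osmotic minipump. Sham-operated and saline-treated rats are the controls of the surgery and of the drugs. BWM and Lean are named by the labels but not described by the study, so their diet and treatment are not given here. From surgery or the start of treatment on, the described groups could choose between a high-fat and a low-fat diet, and they were killed after an overnight fast. Some liraglutide+PYY and saline rats were fed for longer, and the labels do not mark which.

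Many of the amino acids that are not built into protein lose their nitrogen in the liver. Aminotransferases collect it on glutamate, glutamate dehydrogenase sets it free as ammonia, and the urea cycle, which runs partly in the mitochondrion and partly in the cytosol, turns it into urea. Hepatocytes near the portal vein hold most of the urea cycle and of serine and histidine breakdown, while a thin rim around the central vein holds glutamine synthetase, which traps the ammonia that is left. Glucagon and glucocorticoids raise many of these enzymes during fasting or on a protein-rich diet.

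The libraries held between 9110860 and 27559144 assigned reads (median 21027325), and all 45 members passed the filter on low counts among 16691 genes tested. Libraries carried a batch label, A or B: RYGB had 11 libraries in A and 3 in B, sham 7 and 5, liraglutide+PYY 6 and 5, and saline 3 and 5, whereas BWM and Lean were only in A, and PYY and liraglutide only in B. What the label stands for is not stated. The number of liraglutide+PYY and saline rats that the study's methods give a longer feeding period equals the number of batch A libraries of those arms, but no label links them, so batch and feeding period cannot be told apart in the drug arms. Values are scaled CPM, the reads of a gene as a share of its library after correction for library composition, and tests are edgeR quasi-likelihood tests in 1 fit of 69 libraries with the batch as a term. A gene is said to rise or fall when its p, adjusted by the Benjamini-Hochberg method over all genes tested, was under 0.05. In a principal component analysis, the first axis (36.0% of the variance) set 6 libraries of batch B apart: they scored 112 to 158, where the rest of batch B scored 10.99 to 79.9 and batch A -57.8 to -3.24. The 6 were sham replicate 12, PYY replicate 5, liraglutide replicate 4 and liraglutide+PYY replicates 8, 9 and 11, and results are given with and without them where it matters. All 8 hepatocyte markers were found, with a summed level between 65155 and 286105 CPM in RYGB livers and between 80420 and 213537 CPM in sham livers, and none passed the test between those groups. In whole tissue, fewer cells of a type and less RNA per cell cannot be told apart.

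The 45 transcripts differed widely in level. Per kilobase of exon, Hpd (4-hydroxyphenylpyruvate dioxygenase, of tyrosine breakdown) had the highest median level over all 69 libraries, 1225 CPM per kilobase. Arg1 (arginase, which releases urea) followed at 705 CPM per kilobase, Mat1a (which makes S-adenosylmethionine) at 670, Bhmt (betaine-homocysteine methyltransferase) at 620.4 and Ass1 (argininosuccinate synthase) at 603. At the low end were Bcat2 (the mitochondrial branched-chain aminotransferase) at 0.679 CPM per kilobase, Sdsl (serine dehydratase-like) at 12.3 and Mccc1 (a subunit of the leucine-breakdown carboxylase) at 15.2. Oat (ornithine aminotransferase) and Sds (serine dehydratase) had wide ranges across single libraries. Oat lay between 32.5 and 3092 CPM, and Sds between 1.202 and 768 CPM.

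Among the members, Glud1, Glul, Amdhd1, Ass1, Ahcy and Sds carry most of what follows. Glud1 (glutamate dehydrogenase, GeneID 24399) lies on chromosome 16 at 10661486-10695557 of the Rnor_6.0 assembly, plus strand, and Glul (glutamine synthetase, GeneID 24957) on chromosome 13 at 71331052-71340207, plus strand. Ass1 (GeneID 25698) and Ahcy (S-adenosylhomocysteine hydrolase, GeneID 29443) are both on the minus strand of chromosome 3, at 10327411-10375847 and 150587833-150603057. A pair of histidine genes are neighbours on chromosome 7. Hal (histidine ammonia lyase, the first step) runs from 34326087 to 34356413 on the plus strand and Amdhd1 (imidazolone propionase, the step after urocanase) from 34362635 to 34406282 on the minus strand, tail to tail with 6221 bases between them. Sds (41620429-41627741, minus strand) and its relative Sdsl (41636994-41647205, plus strand) lie head to head on chromosome 12 with 9252 bases between them.

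The promoters of Glud1, Glul and Ahcy are shown because these 3 genes stood higher in RYGB than in Lean livers. Each run covers 250 bases before and 50 bases after the annotated start in RefSeq's GRCr8 assembly, which is not the assembly of the counts, and the capitals mark the letters TGACG, which the half-site of a cyclic AMP response element holds.
Glud1, chr16:9646319-9646618, plus strand: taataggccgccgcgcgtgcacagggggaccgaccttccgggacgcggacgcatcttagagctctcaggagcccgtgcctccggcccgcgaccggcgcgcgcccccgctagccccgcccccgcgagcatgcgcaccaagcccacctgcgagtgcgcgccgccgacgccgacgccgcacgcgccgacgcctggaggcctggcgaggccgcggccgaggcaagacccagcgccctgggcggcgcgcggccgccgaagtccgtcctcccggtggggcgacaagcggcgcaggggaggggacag
Glul, chr13:68519250-68519549, plus strand: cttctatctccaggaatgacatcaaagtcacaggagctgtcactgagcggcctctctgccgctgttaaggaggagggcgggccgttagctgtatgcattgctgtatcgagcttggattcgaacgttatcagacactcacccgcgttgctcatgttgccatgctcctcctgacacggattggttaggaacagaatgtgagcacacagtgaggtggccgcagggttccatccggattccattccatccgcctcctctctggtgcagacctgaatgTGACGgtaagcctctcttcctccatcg
Ahcy, chr3:164044513-164044812, minus strand: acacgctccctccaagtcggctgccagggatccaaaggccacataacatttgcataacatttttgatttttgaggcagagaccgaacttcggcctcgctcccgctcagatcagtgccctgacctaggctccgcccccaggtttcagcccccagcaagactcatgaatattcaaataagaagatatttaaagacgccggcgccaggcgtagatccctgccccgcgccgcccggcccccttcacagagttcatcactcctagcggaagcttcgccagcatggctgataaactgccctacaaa
Of the 45 members, 38 had a promoter in the RefSeq table. TGACG, on either strand, was found in 7 of those 38 (18.4%) and in 7097 of all 33469 promoters (21.2%), so the share among members was close to that of promoters in general. The full site TGACGTCA was in 0 of 38 members and in 612 promoters (1.83%). TGTTCT, the half-site of a glucocorticoid response element, was in 4 of 38 members (10.5%) and in 6923 promoters (20.7%). These are matches of letters and not measured binding.

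RYGB against sham was the comparison of the surgery with its control. Glud1 and Amdhd1 rose after RYGB, and no member fell. Over all genes tested, 3.09% passed the threshold in either direction (1.48% higher and 1.61% lower), against 2 of 45 members, so the share among members was close to that of all genes. The median log2 fold change of the members was -0.03, beside -0.01 for all genes tested. Of the members 21 lay above 0 and 24 below, and of all genes 7973 and 8718. All 10 Kupffer cell and macrophage markers had a log2 fold change above 0 in the same comparison, with a median of 0.35 and none past the threshold. Their summed level lay between 216 and 724 CPM in RYGB livers and between 188 and 491 CPM in sham livers. Blood markers went the other way, with 0 of 5 tested above 0 (median -0.73) and a summed level of 50.5 to 1237 CPM in RYGB livers and 132 to 1541 CPM in sham livers. Likewise 0 of 7 tested T and NK cell markers lay above 0 (median -0.30), at 2.64 to 10.9 CPM in RYGB livers and 4.66 to 15.5 CPM in sham livers. Of 4 adipocyte markers 1 was tested and rose, Cidea (1.54, edgeR adjusted p = 0.0185), and the summed level was 1.75 to 27.6 CPM in RYGB livers and 0.606 to 5.62 CPM in sham livers, with Lep at 0 in sham. Of 4 pancreas markers 1 was tested and rose, Cela1 (0.89, edgeR adjusted p = 0.0191), at a summed 11.8 to 95.9 CPM in RYGB livers and 7.67 to 71.2 CPM in sham livers, with Ins2 at 0 in RYGB and Prss1 at 0 in sham. The part of these markers in the member results was not tested. The plot of fold changes shows the 45 members by class.

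**Figure D1:**
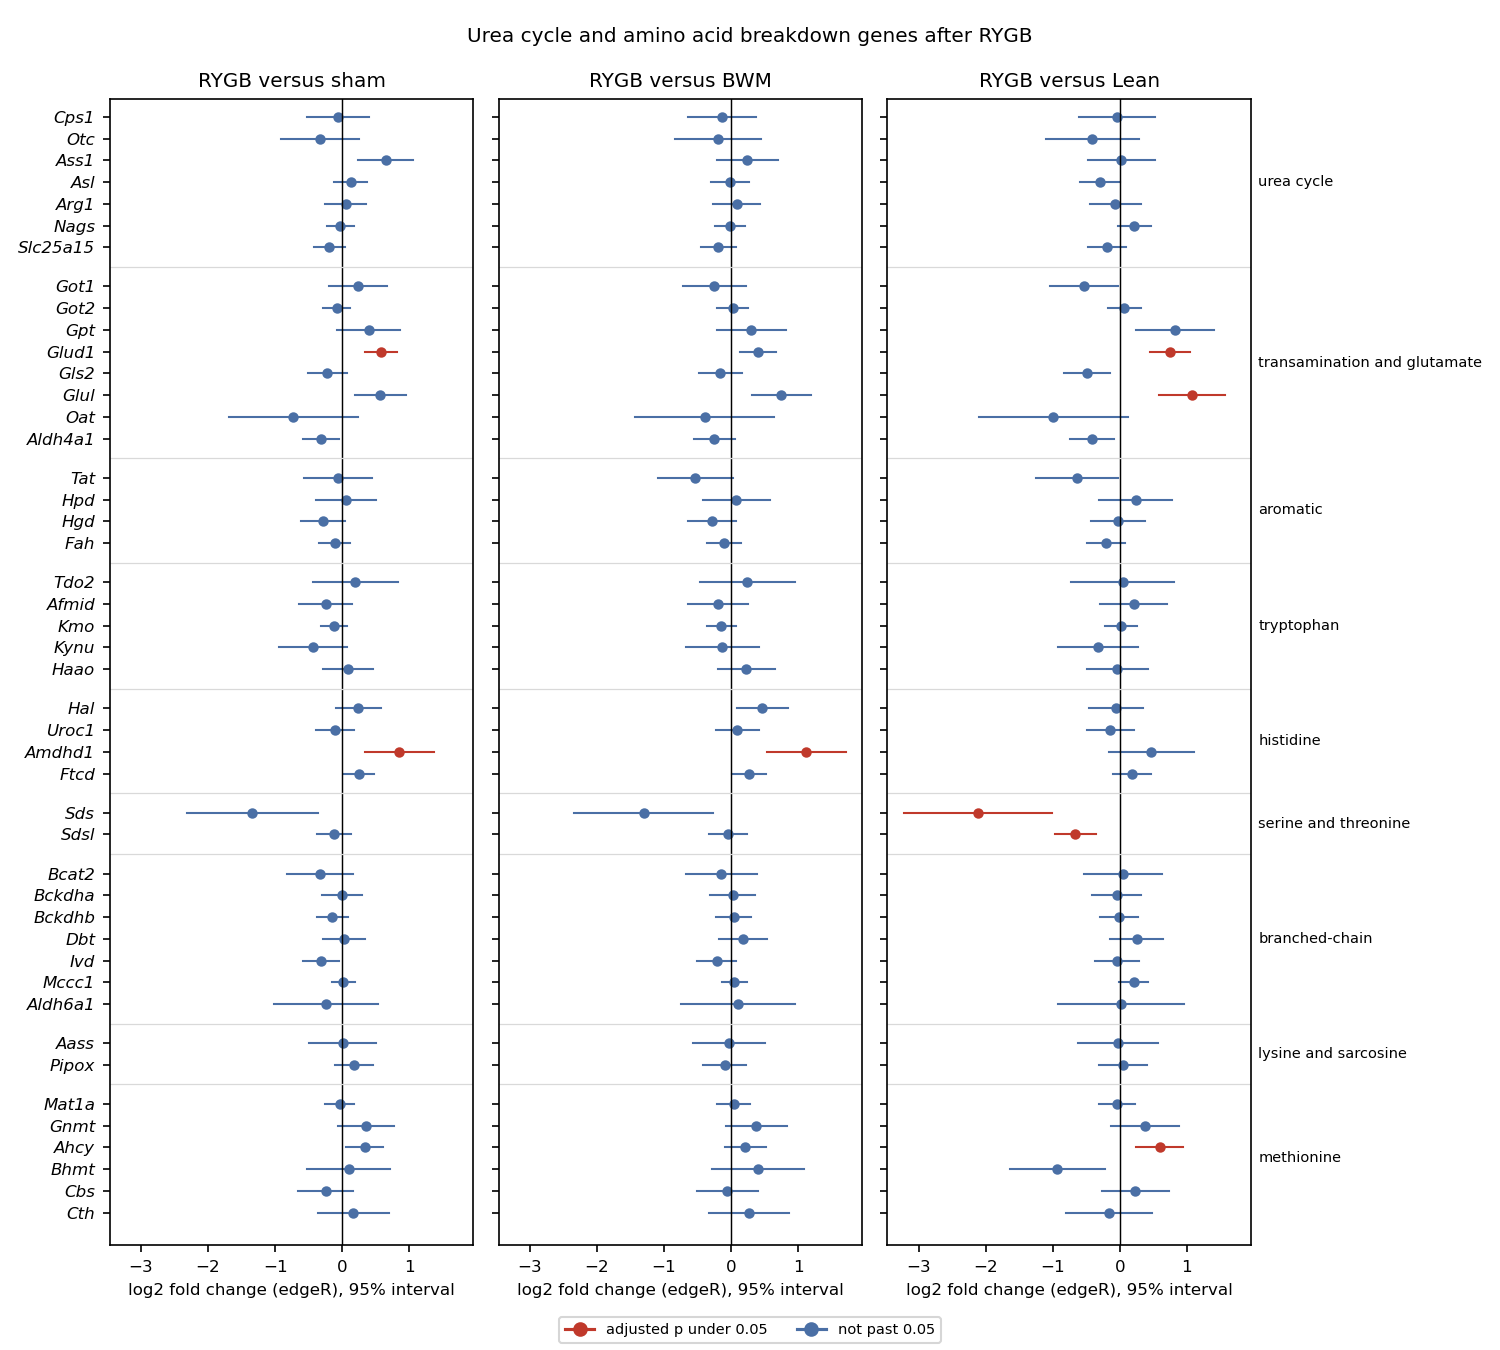
Log2 fold change (x axis) of each of the 45 members, grouped by enzyme class, in RYGB against sham, BWM and Lean livers. Points are edgeR estimates with 95% intervals, and red marks an adjusted p under 0.05: 2 members against sham, 1 against BWM and 5 against Lean.

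Glud1, which frees ammonia from glutamate in the mitochondrion, averaged 968 ± 212 CPM in RYGB livers (SD, n = 14) and 626 ± 112 CPM in sham livers (SD, n = 12). The lowest, median and highest RYGB libraries had 612, 963 and 1294 CPM, against 408, 640 and 789 CPM in sham. In 12 of 14 RYGB livers Glud1 exceeded every sham liver, and both others were of batch B. The log2 fold change was 0.58 with a 95% interval of 0.34 to 0.82 (edgeR adjusted p = 0.00120). Within batch A the groups did not overlap, with RYGB between 799 and 1294 CPM and sham between 628 and 789 CPM, and the log2 fold change was 0.58 (edgeR adjusted p = 0.000109). In batch B the RYGB libraries had 639, 801 and 612 CPM and the sham libraries 408, 538, 490, 556 and 622 CPM, with a log2 fold change of 0.39 (edgeR adjusted p = 0.957). Glud1 passed the threshold whichever single RYGB or sham library was left out.

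Amdhd1, the imidazolone propionase of histidine breakdown, averaged 105 ± 48.5 CPM in RYGB livers (SD, n = 14) and 54.5 ± 22.0 CPM in sham livers (SD, n = 12). In batch A the lowest, median and highest RYGB values were 69.2, 113 and 218 CPM, against 33.5, 71.6 and 83.4 CPM in sham. The batch B values were 49.8, 77.0 and 58.6 CPM in RYGB livers and 53.1, 26.5, 56.0, 45.6 and 21.9 CPM in sham livers. The groups overlapped, and 7 of 14 RYGB livers lay above every sham liver. The log2 fold change was 0.85 with a 95% interval of 0.34 to 1.37 (edgeR adjusted p = 0.0473). This call sat at the threshold. Single livers decided it: the fit without RYGB replicate 2, 5, 6, 7, 9, 10 or 13, and the fit without sham replicate 2, 4, 5, 6, 9, 11 or 12, gave a log2 fold change between 0.75 and 0.88 and an edgeR adjusted p between 0.0524 and 0.1001. Batch A alone gave 0.87 (edgeR adjusted p = 0.0526) and batch B alone 0.62 (edgeR adjusted p = 0.976), while leaving out the 6 libraries apart gave 0.83 (edgeR adjusted p = 0.0169).

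The 3 other histidine enzymes stood side by side with Amdhd1 as follows. Hal, its neighbour on chromosome 7, had a log2 fold change of 0.24 (edgeR adjusted p = 0.618), and Uroc1 (urocanase, the step between them) one of -0.11 (edgeR adjusted p = 0.853). Ftcd, which passes the formimino group to folate and leaves glutamate, had 0.25 (edgeR adjusted p = 0.317). In batch A alone Ftcd lay between 387 and 648 CPM in RYGB livers and between 367 and 499 CPM in sham livers, and it passed the threshold there with 0.32 (edgeR adjusted p = 0.0371).

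Ass1, which joins citrulline to aspartate in the cytosol, had the largest difference of the urea cycle genes. It averaged 1413 ± 612 CPM in RYGB livers (SD, n = 14) and 818 ± 314 CPM in sham livers (SD, n = 12). The lowest, median and highest values were 362, 1566 and 2334 CPM after RYGB, against 372, 909 and 1303 CPM after sham, with 10 of 14 RYGB livers above every sham liver. Its log2 fold change of 0.65 missed the threshold over all libraries (edgeR adjusted p = 0.0720). Batch A alone gave 0.68 (edgeR adjusted p = 0.0215), with RYGB between 1012 and 2334 CPM and sham between 900.3 and 1303 CPM. In that batch 3 members passed the threshold (Ass1, Glud1 and Ftcd), where 5.55% of all genes did. In batch B the groups overlapped. The RYGB libraries there had 362, 684 and 367 CPM and the sham libraries 533, 399.8, 679, 504 and 372 CPM. The log2 fold change in batch B alone was -0.067, and no member passed in that batch. Ass1 also passed without RYGB replicate 12 (0.75, edgeR adjusted p = 0.0210), RYGB replicate 14 (0.74, edgeR adjusted p = 0.0214) or sham replicate 7 (0.72, edgeR adjusted p = 0.0428). Without the 3 batch B RYGB libraries, an alternative chosen after seeing their low counts, the log2 fold change was 0.93 (edgeR adjusted p = 0.00245).

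None of the 6 other urea cycle transcripts passed the threshold. Cps1, the mitochondrial enzyme that commits ammonia to the cycle, had a lowest, median and highest value of 410.5, 2246 and 2627 CPM in RYGB livers and 796, 2072 and 3672 CPM in sham livers. Otc, which makes citrulline from ornithine, had 78.9, 323 and 464 CPM in RYGB livers and 167, 369 and 1183 CPM in sham livers. For both genes the highest sham value was that of replicate 12, one of the 6 libraries apart. Asl, which splits argininosuccinate, had 216, 329 and 589 CPM in RYGB livers and 251, 323 and 467 CPM in sham livers. Arg1 had 239, 1162 and 1766 CPM in RYGB livers and 327, 1197 and 1472 CPM in sham livers. For both enzymes the lower end and the median of the groups lay close together. Nags, which makes the activator of Cps1, had 46.1, 79.8 and 119 CPM in RYGB livers and 66.0, 74.6 and 90.2 CPM in sham livers. Slc25a15, the ornithine carrier of the inner mitochondrial membrane, had 161, 365 and 490.5 CPM in RYGB livers and 199, 335 and 532 CPM in sham livers. Fold changes of these 6 genes lay between -0.33 (Otc) and 0.13 (Asl) on the log2 scale.

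Glul, the pericentral enzyme that makes glutamine from glutamate and ammonia, averaged 498 ± 194 CPM in RYGB livers (SD, n = 14) and 307 ± 67.0 CPM in sham livers (SD, n = 12). In 11 of 14 RYGB livers it exceeded every sham liver. Batch A held a lowest, median and highest value of 96.8, 546 and 837 CPM after RYGB, against 301, 338 and 411 CPM after sham. The batch B values were 393, 453 and 246 CPM in RYGB livers and 185, 288, 314, 289 and 189 CPM in sham livers. The log2 fold change of 0.57 missed the threshold (edgeR adjusted p = 0.0954). RYGB replicate 2 held the lowest value, 96.8 CPM, and without it the log2 fold change was 0.65 (edgeR adjusted p = 0.0127). That liver also had the lowest Oat of all 69 libraries (32.5 CPM), a Rhbg (an ammonia transporter of pericentral cells) of 1.59 CPM, and the highest Amdhd1 (218 CPM) and Hal (311 CPM). Whether the piece of tissue sampled differed from the others was not tested.

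The other transamination and glutamate genes did not pass the threshold. Gpt (alanine aminotransferase, cytosolic) averaged 196 ± 121 CPM in RYGB livers and 124 ± 51.5 CPM in sham livers (SD, n = 14 and 12), with a log2 fold change of 0.39 (edgeR adjusted p = 0.526). Aldh4a1, which finishes the path from proline and ornithine to glutamate, had a log2 fold change of -0.32 (edgeR adjusted p = 0.268). Oat had -0.73 (edgeR adjusted p = 0.596), with a sham mean of 326 ± 557 CPM that held replicate 12 at 2089.8 CPM. Got1 and Got2, the cytosolic and mitochondrial aspartate aminotransferases, had 0.24 and -0.08, and Gls2, the liver glutaminase, had -0.22.

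Sds, which turns serine into pyruvate and ammonia, had the largest fold change of the 45 members and a wide spread. It averaged 99.4 ± 84.7 CPM in RYGB livers (SD, n = 14) and 213 ± 162 CPM in sham livers (SD, n = 12). In batch A the lowest, median and highest values were 40.0, 85.8 and 266 CPM after RYGB, against 125, 277 and 546 CPM after sham. In batch B the RYGB libraries had 1.202, 4.41 and 35.7 CPM and the sham libraries 17.6, 27.1, 266, 48.3 and 79.5 CPM. Both batches overlapped between groups, and both were lower at the median after RYGB. The log2 fold change was -1.34 with a 95% interval of -2.31 to -0.37 and missed the threshold (edgeR adjusted p = 0.148). Leaving out the 6 libraries apart gave -1.48 (edgeR adjusted p = 0.0492), and 3 members then passed, beside 5.57% of all genes. Sdsl, next to it on chromosome 12, had -0.12 (edgeR adjusted p = 0.795).

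**Figure D2:**
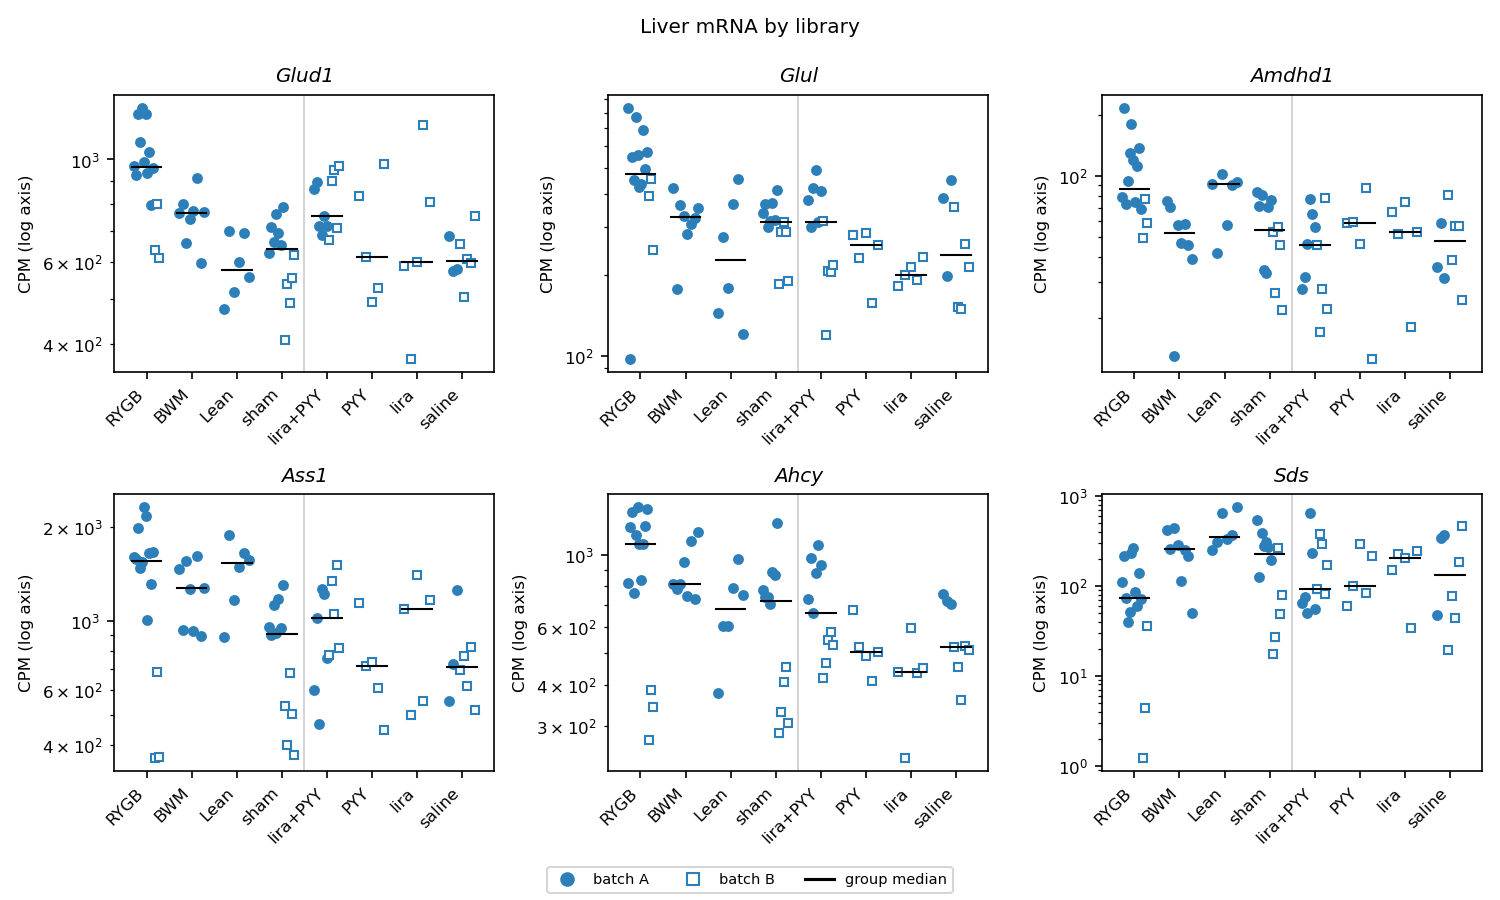
CPM (log axis) of Glud1, Glul, Amdhd1, Ass1, Ahcy and Sds in every library of the 8 groups. Filled circles are batch A, open squares batch B, and the line is the group median; Glud1 lies between 799 and 1294 CPM in batch A RYGB livers and between 628 and 789 CPM in batch A sham livers.

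Methionine breakdown runs through S-adenosylmethionine and homocysteine to cysteine. Ahcy, which frees homocysteine, averaged 949.7 ± 390 CPM in RYGB livers (SD, n = 14) and 647 ± 295 CPM in sham livers (SD, n = 12), with a log2 fold change of 0.34 (edgeR adjusted p = 0.235). Its batch A values lay between 764 and 1404 CPM in RYGB livers and between 705 and 1254 CPM in sham livers. In batch B they were 271, 387 and 343 CPM in RYGB livers and 285, 329.7, 407, 455 and 306 CPM in sham livers. Both groups were lower in batch B. Without the 3 batch B RYGB libraries, the alternative chosen after seeing their low counts, Ahcy passed the threshold (0.52, edgeR adjusted p = 0.0258). In batch A alone Ahcy did not pass. Gnmt, which uses up spare S-adenosylmethionine, had a log2 fold change of 0.36 (edgeR adjusted p = 0.507). Mat1a had -0.04, Bhmt (which remethylates homocysteine with betaine) 0.10, Cbs (cystathionine beta-synthase) -0.24 and Cth (cystathionine gamma-lyase) 0.17, and none of these passed.

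Among the aromatic, tryptophan, branched-chain and lysine genes no member passed the threshold after RYGB. Tat, the glucocorticoid-induced tyrosine aminotransferase, averaged 639 ± 425 CPM in RYGB livers and 583 ± 340 CPM in sham livers (SD, n = 14 and 12), with a log2 fold change of -0.07. Hpd had 0.06, Hgd (homogentisate dioxygenase) -0.28 and Fah (the last enzyme of the path) -0.11. On the kynurenine path, Tdo2, which opens the ring of tryptophan, had 0.20, Afmid -0.24, Kmo -0.12, Kynu (kynureninase) -0.44 and Haao 0.08. Tdo2 averaged 901 ± 412 CPM in RYGB livers and 750.5 ± 311 CPM in sham livers (SD, n = 14 and 12). The branched-chain genes lay between -0.33 (Bcat2) and 0.03 (Dbt, a core subunit of the keto acid dehydrogenase). Ivd, of leucine breakdown, had -0.32 (edgeR adjusted p = 0.248), Aldh6a1, of valine breakdown, -0.24, Bckdha and Bckdhb, the E1 subunits of that dehydrogenase, -0.01 and -0.15, and Mccc1 0.02. Aass, the entry of lysine breakdown, had 0.01, and Pipox, which oxidises pipecolate and sarcosine, had 0.18.

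In RYGB against BWM, Amdhd1 rose and was the only member to pass, where 1.24% of all genes did. It averaged 105 ± 48.5 CPM in RYGB livers and 50.8 ± 19.6 CPM in BWM livers (SD, n = 14 and 8), with a log2 fold change of 1.12 (edgeR adjusted p = 0.0319). The call was lost without RYGB replicate 2 or 6 or without BWM replicate 3, 5, 7 or 8, with a log2 fold change between 0.99 and 1.12 and an edgeR adjusted p between 0.0560 and 0.0923. Glul had 498 ± 194 CPM in RYGB livers and 320 ± 70.7 CPM in BWM livers (SD, n = 14 and 8), with a log2 fold change of 0.75 (edgeR adjusted p = 0.0655). It passed without RYGB replicate 2 (0.85, edgeR adjusted p = 0.00645) or RYGB replicate 14 (0.78, edgeR adjusted p = 0.0497). Glud1 had 968 ± 212 CPM in RYGB livers and 753 ± 93.3 CPM in BWM livers (SD, n = 14 and 8), a log2 fold change of 0.40 (edgeR adjusted p = 0.178). With the 6 libraries apart left out Glud1 had 0.42 (edgeR adjusted p = 0.0203) and passed beside Amdhd1, where 2.14% of all genes did.

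All BWM libraries are of batch A, and within that batch 4 members rose in RYGB livers, beside 3.47% of all genes. They were 3 enzymes of histidine breakdown and Glud1. Amdhd1 had a log2 fold change of 1.205 (edgeR adjusted p = 0.00517), Hal 0.52 (edgeR adjusted p = 0.0341), Ftcd 0.36 (edgeR adjusted p = 0.0173) and Glud1 0.47 (edgeR adjusted p = 0.00120). Over all libraries Hal and Ftcd had 0.47 and 0.27 and did not pass.

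RYGB against Lean held the most calls, 3 members higher and 2 lower, where 1.56% of all genes were higher and 2.19% lower (3.76% in all). Glutamate dehydrogenase and glutamine synthetase, the enzymes that release and bind ammonia, both rose. Cell type markers also differed between these groups. All 8 endothelial markers lay below 0 (median -0.47, none past the threshold), with a summed level of 88.7 to 379 CPM in RYGB livers and 194 to 276 CPM in Lean livers. In Lean against sham all 8 lay above 0 (median 0.51), and in RYGB against sham 4 of 8 did (median 0.01). Of 8 hepatocyte markers Cyp2e1, which is also on the pericentral list, was higher in RYGB than in Lean livers (1.298) and Ttr lower (-0.84). Of 6 cholangiocyte markers Krt7 was higher (2.703) and Epcam lower (-0.69). The summed hepatocyte level was 65155 to 286105 CPM in RYGB livers and 150561 to 205623 CPM in Lean livers, and that of cholangiocyte markers 11.7 to 27.2 CPM and 13.8 to 22.8 CPM. Their part in the member results was not tested. Glud1 averaged 968 ± 212 CPM in RYGB livers and 591 ± 91.8 CPM in Lean livers (SD, n = 14 and 6), a log2 fold change of 0.75 (edgeR adjusted p = 0.000811). Glul averaged 498 ± 194 CPM in RYGB livers and 256 ± 133 CPM in Lean livers (SD, n = 14 and 6), a log2 fold change of 1.07 (edgeR adjusted p = 0.00359). Ahcy rose by 0.59 on the log2 scale (edgeR adjusted p = 0.0333). That call was lost without RYGB replicate 3, 6 or 11 or Lean replicate 1, 2 or 3, with a log2 fold change between 0.47 and 0.56 and an edgeR adjusted p between 0.0533 and 0.192.

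Both serine dehydratases fell in RYGB livers relative to Lean. Sds averaged 99.4 ± 84.7 CPM in RYGB livers and 448 ± 210 CPM in Lean livers (SD, n = 14 and 6), a log2 fold change of -2.11 (edgeR adjusted p = 0.0143). Without Lean replicate 6 it was -1.90 (edgeR adjusted p = 0.0555). Sdsl averaged 14.9 ± 3.49 CPM in RYGB livers and 21.9 ± 1.82 CPM in Lean livers (SD, n = 14 and 6), a log2 fold change of -0.66 (edgeR adjusted p = 0.00328). In batch A the groups did not overlap for Sdsl, with 10.1 to 18.5 CPM in RYGB livers and 20.1 to 24.8 CPM in Lean livers, whereas RYGB replicate 13, of batch B, had 22.2 CPM. Batch A alone called 8 members, 5 higher and 3 lower, beside 10.2% of all genes, and Gpt (0.96, edgeR adjusted p = 0.0260), Nags (0.27, edgeR adjusted p = 0.0497) and Aldh4a1 (-0.34) were those added. Gls2 passed without RYGB replicate 6 (-0.56, edgeR adjusted p = 0.0444). With the 6 libraries apart left out, the same 5 members and Aldh4a1 (-0.35, edgeR adjusted p = 0.0144) passed, beside 6.3% of all genes.

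No member passed the threshold in BWM or Lean livers against sham. For BWM against sham, 0 of 45 members passed at the adjusted threshold in edgeR, where 0.0419% of all genes did. At an unadjusted p under 0.05 in edgeR it was also 0 of 45, where 3.24% of all genes passed. Fold changes below 0 were held by 33 of 45 members and by 8906 of all 16691 genes tested. The medians were -0.05 and -0.02 on the log2 scale. For Lean against sham, 0 of 45 passed in edgeR and 6 had an unadjusted p under 0.05, where 0.605% and 6.09% of all genes did. Those 6 were Sdsl (0.54), Got1 (0.77), Bhmt (1.03), Asl (0.42), Ass1 (0.62) and Glul (-0.50), as log2 fold changes. Bhmt averaged 2130.4 ± 371 CPM in Lean livers and 1176 ± 449 CPM in sham livers (SD, n = 6 and 12; edgeR adjusted p = 0.441). Sdsl had an edgeR adjusted p of 0.134, passed with limma-voom, and passed in edgeR without sham replicate 4 (0.63, edgeR adjusted p = 0.0284). These comparisons share the sham libraries with that of RYGB.

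In the drug arms no member passed the threshold. For liraglutide+PYY against saline the count was 0 of 45 in edgeR, in DESeq2 and in limma-voom, with 6 members at an unadjusted p under 0.05, where 0.00599% and 10.7% of all genes passed those limits. Tdo2, Glud1, Oat, Aldh6a1, Bcat2 and Arg1 were those 6, with log2 fold changes of 0.93, 0.34, 1.36, 1.03, -0.57 and 0.37 (edgeR adjusted p = 0.460 for each). For PYY against saline the counts were 0 and 6, where 0 and 4.96% of all genes passed. Cth, Aldh6a1, Otc, Mccc1, Ivd and Hal had 1.01, 1.33, 0.93, 0.26, 0.39 and 0.48 (edgeR adjusted p = 0.947 for each). For liraglutide against saline the counts were 0 and 2, where 0.00599% and 6.24% of all genes passed, with Bckdha at 0.51 (edgeR adjusted p = 0.705) and Ass1 at 0.59 (edgeR adjusted p = 0.798). Without liraglutide replicate 4, one of the 6 libraries apart, Bckdha had 0.076.

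**Figure D3:**
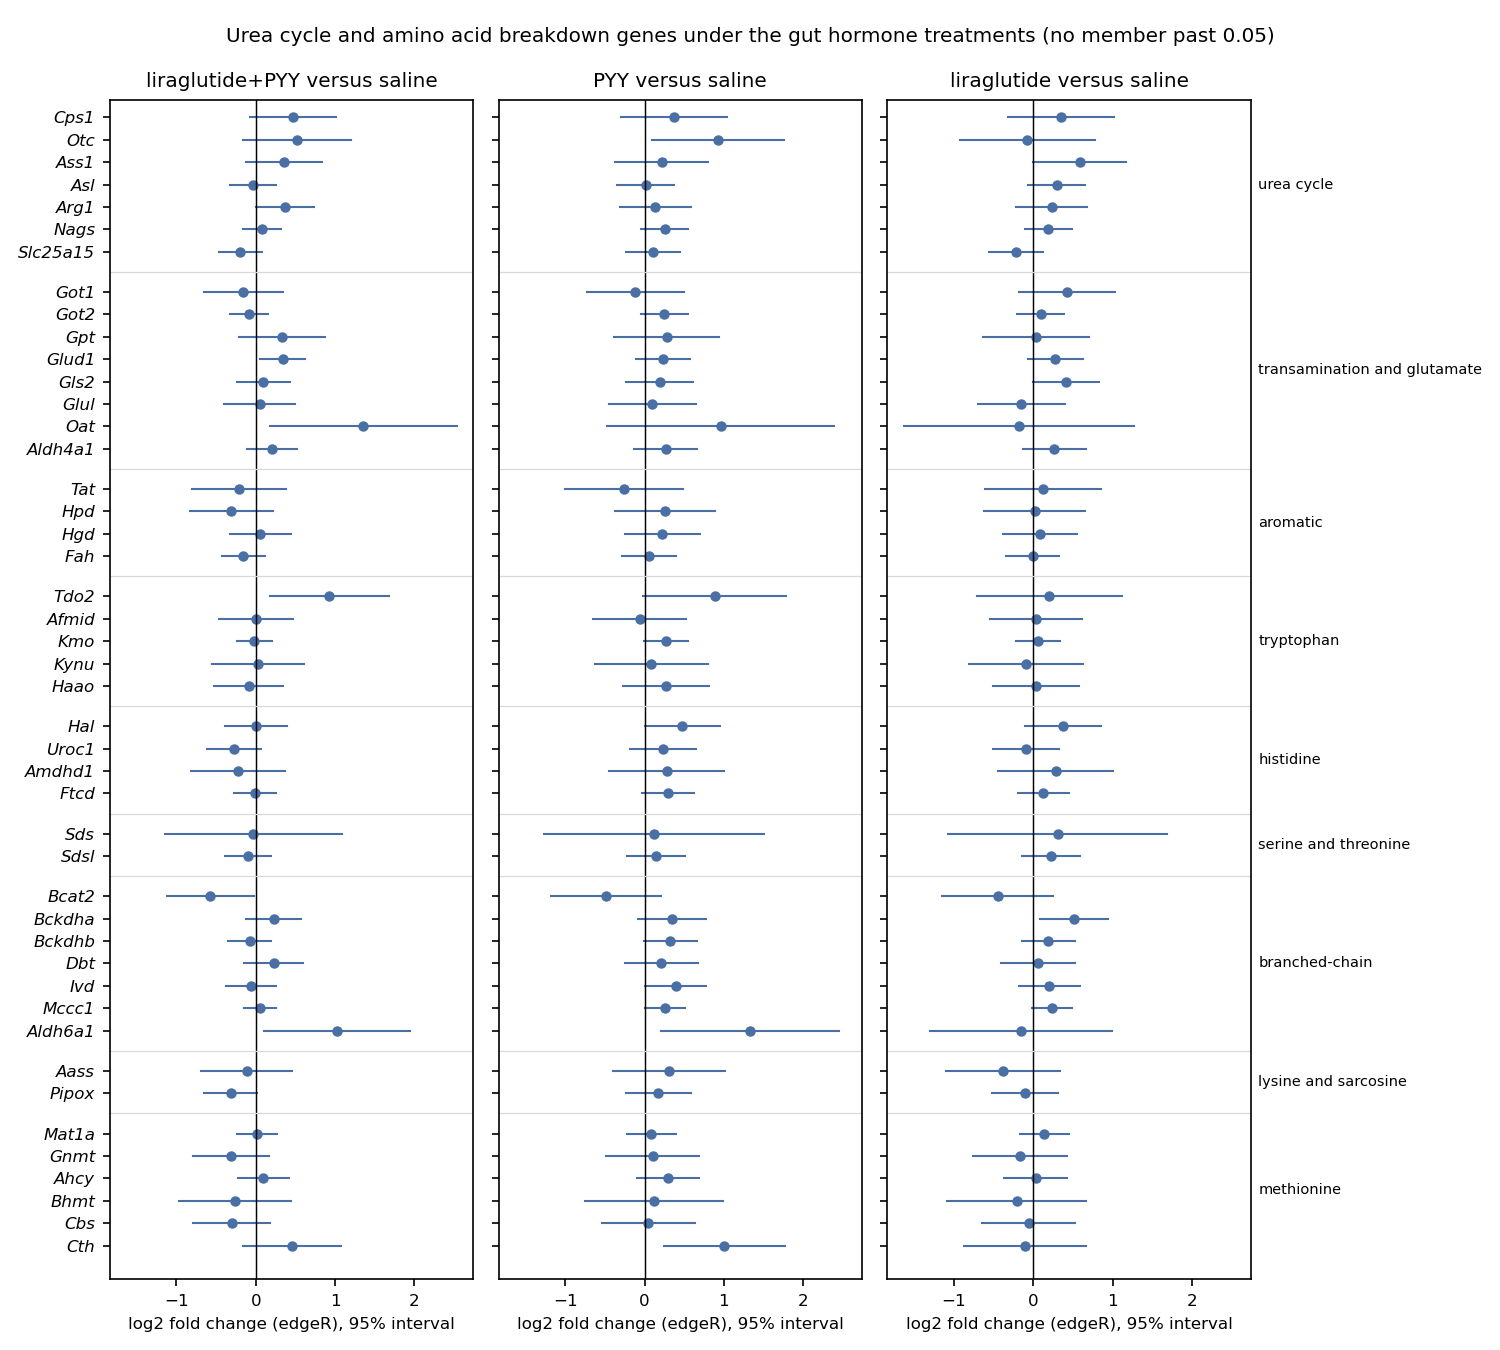
Log2 fold change (x axis) of each of the 45 members, grouped by enzyme class, for liraglutide+PYY, PYY and liraglutide against saline. Points are edgeR estimates with 95% intervals, and no member passed an adjusted p of 0.05 in the 3 comparisons.

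Several of the larger drug fold changes rested on the libraries that stood apart. Oat, which links ornithine to glutamate and proline, had 2033 CPM in PYY replicate 5 and 178, 176, 163 and 108 CPM in the other PYY livers, against 88.7 to 346 CPM in saline livers. Aldh6a1 had 3667 CPM in PYY replicate 5 and 404, 244, 284 and 304 CPM in the others, against 143 to 527 CPM in saline. Tdo2 had 3574 CPM in PYY replicate 5 and 685, 481, 419.9 and 529 CPM in the others, against 345 to 1102 CPM in saline. In each case 1 liver of 5 was far above the rest of its group and above all saline livers. Without PYY replicate 5 the log2 fold changes in PYY against saline were -0.83 for Oat, -0.36 for Aldh6a1, -0.24 for Tdo2, -0.048 for Otc and 0.39 for Cth. In that comparison 41 of 45 members had a fold change above 0, as did 9264 of all 16691 genes tested. The medians were 0.24 and 0.04. Without PYY replicate 5, 35 members lay above 0 (median 0.22), and without the 6 libraries apart 39 did (median 0.20). The share of all genes above 0 in these 2 settings is not given.

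Among the liraglutide+PYY livers, replicates 8, 9 and 11 had 3092, 385 and 1787 CPM of Oat, where the median of the 11 was 175 CPM. They had 1982, 374 and 2464 CPM of Aldh6a1 and 3372, 1180.1 and 3006 CPM of Tdo2. Sham replicate 12 had 2089.8 CPM of Oat, 2698 CPM of Aldh6a1 and 1066 CPM of Tdo2, and liraglutide replicate 4 had 247, 790.4 and 1556 CPM. Liraglutide+PYY replicate 9 and liraglutide replicate 4 had less Oat than the other 4. Set against the median of the 22 other batch B libraries, 12 of 45 members were higher in all 6, 11 were lower in all 6 and 22 were mixed. The 6 were picked on an axis drawn from all genes, and the same count over all genes was not made. The split therefore cannot be read as a trait of these members. Bckdha lay between 248 and 520 CPM in the 6, against a median of 177 CPM in the 22. Hpd lay between 304 and 635 CPM in the 6, where the 22 ranged from 822 to 2643 CPM. Haao was also low, between 51.5 and 118 CPM against a median of 228 CPM, and Amdhd1 was between 12.5 and 27.9 CPM against a median of 56.3 CPM. With the 6 left out, liraglutide+PYY against saline gave -0.19 for Oat, -0.041 for Aldh6a1 and -0.090 for Tdo2, and PYY against saline gave -0.090, 0.14 and -0.030.

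**Figure D4:**
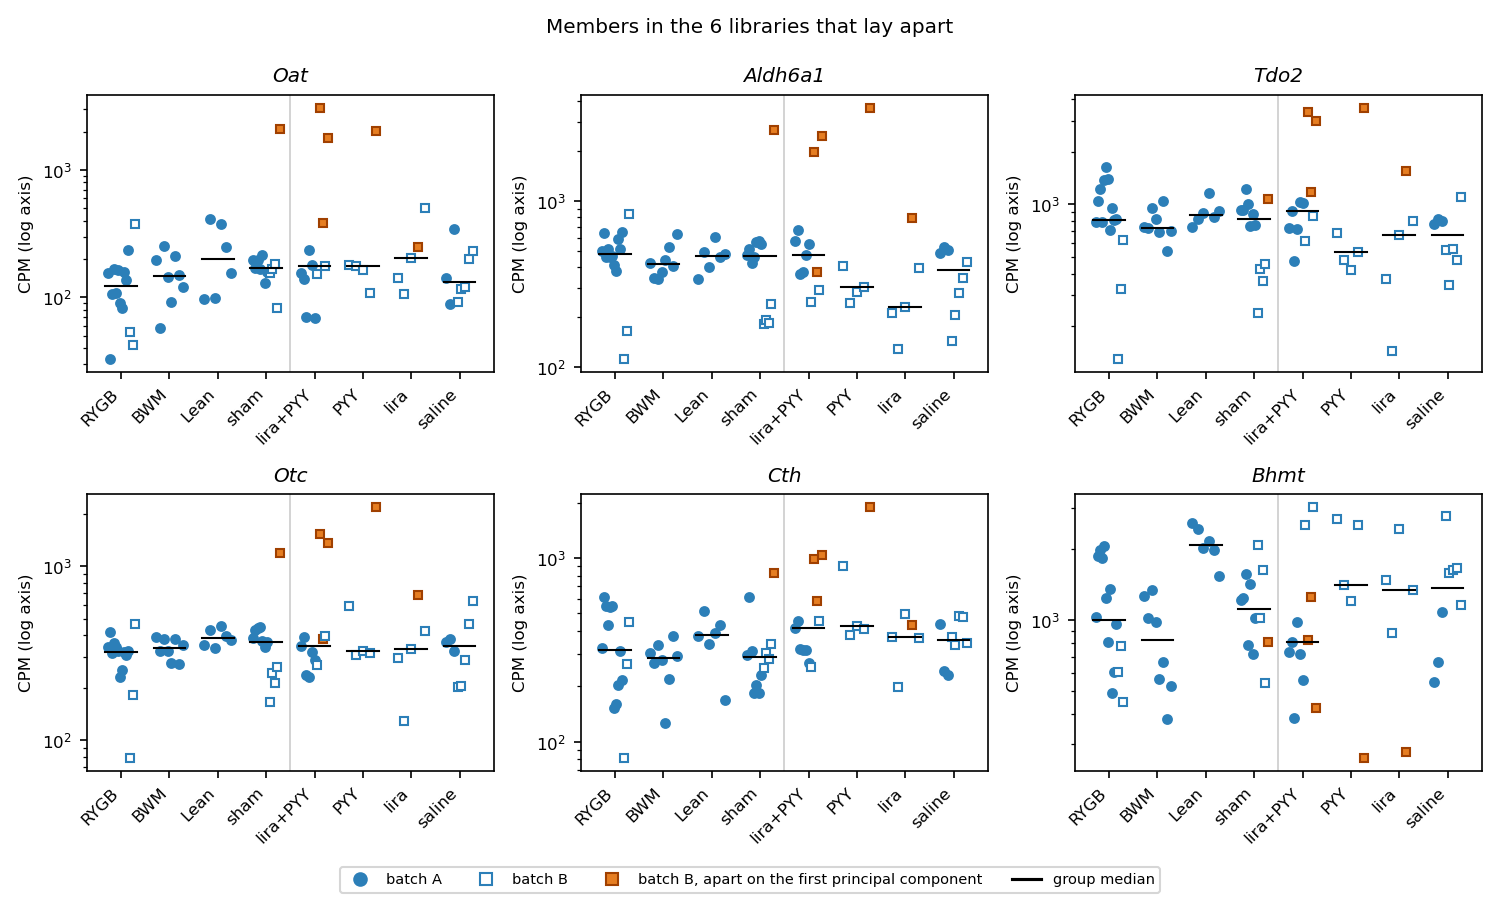
CPM (log axis) of Oat, Aldh6a1, Tdo2, Otc, Cth and Bhmt in every library of the 8 groups. Orange squares are the 6 libraries that stood apart on the first principal component, and the line is the group median; Oat reaches 2033 CPM in PYY replicate 5 and 108 to 178 CPM in the other PYY livers.

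The RYGB effect and the drug effect were compared directly by an interaction term, RYGB over sham minus liraglutide+PYY over saline. In edgeR 0 of 45 members passed and 6 had an unadjusted p under 0.05, where 0.024% and 12.4% of all genes did. Amdhd1 had the smallest adjusted p, with a difference of 1.08 on the log2 scale (edgeR adjusted p = 0.334). Its level in the 11 liraglutide+PYY livers lay between 17.2 and 78.1 CPM, against 24.7 to 81.1 CPM in saline. Glud1 differed by 0.24 with a 95% interval of -0.12 to 0.61 (edgeR adjusted p = 0.542), and its own log2 fold changes were 0.58 after RYGB and 0.34 after liraglutide+PYY. So the rise of Glud1 and Amdhd1 past the threshold after RYGB was not shown to differ from their drug fold changes. Both genes were shifted in the 6 libraries apart, which include liraglutide+PYY and sham livers but none of RYGB or saline. Glud1 lay between 622 and 1186 CPM in the 6, against a median of 606 CPM in the 22 other batch B libraries. Amdhd1 lay between 12.5 and 27.9 CPM, against 56.3 CPM. Without the 6 the interaction also called 0 members, and the drug fold changes of both genes in that setting are not given here. Sham against saline, the comparison of both controls, called 0 members in edgeR and 1 had an unadjusted p under 0.05, where 0 and 2.57% of all genes did. That gene was Pipox, with a log2 fold change of -0.57.

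Batch separated more of these genes than any comparison of groups did, and the test of it was added after seeing the data. It is estimated from the 4 groups that have libraries in both batches, RYGB, sham, liraglutide+PYY and saline. In batch B against batch A 7 of 45 members were higher and 25 lower, where 33.4% of all genes were higher and 27.1% lower (60.5% in all). The members' median log2 fold change was -0.36, beside 0.08 for all genes tested. With the 6 libraries apart left out, 7 were higher and 26 lower, beside 63.1% of all genes in either direction, and the median was -0.35.

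Enzymes of several paths were lower in batch B. Sds had a log2 fold change of -1.23, Ivd -1.12, Aass -1.11, Ahcy -1.11, Tat -1.07, Gpt -1.02, Arg1 -0.94 and Mat1a -0.89. Kynu (1.06), Sdsl (0.52), Hgd (0.51), Bckdha (0.47) and Fah (0.21) were higher with and without the 6 libraries, so the path of tyrosine had Tat and Hpd lower and Hgd and Fah higher. Oat had 1.31 (edgeR adjusted p = 0.00397) with all libraries and -0.040 (edgeR adjusted p = 0.894) without the 6. Aldh6a1 had 0.18 and Otc 0.32 with all libraries, neither past the threshold, and both were lower in batch B without the 6 (Aldh6a1 -0.89, edgeR adjusted p = 3.95e-06, and Otc -0.35, edgeR adjusted p = 0.0448). Cps1 had -0.44 with all libraries and -0.91 without the 6, and Tdo2 had -0.32 and -0.93. The summed level of the 45 members was 9752, 13753 and 12993 CPM in the batch B RYGB livers, against 17612 to 28090 CPM in the batch A RYGB livers. In sham livers it was 13022 to 22307 CPM in batch B and 19450 to 22919 CPM in batch A. The batches lay closer together in the drug arms. Liraglutide+PYY livers had 18034 to 27711 CPM (median 19903) in batch B and 13937 to 22079.5 CPM (median 20218) in batch A. Saline livers had 14608 to 18336 CPM (median 16532) in batch B and 16052.5 to 21736 CPM (median 18980) in batch A. RYGB replicate 12, in batch B, had the lowest value of its group for 22 of 45 members. It also had the fewest assigned reads of all libraries (9110860). The same count over all genes was not made, so this cannot be read as a trait of these members.

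**Figure D5:**
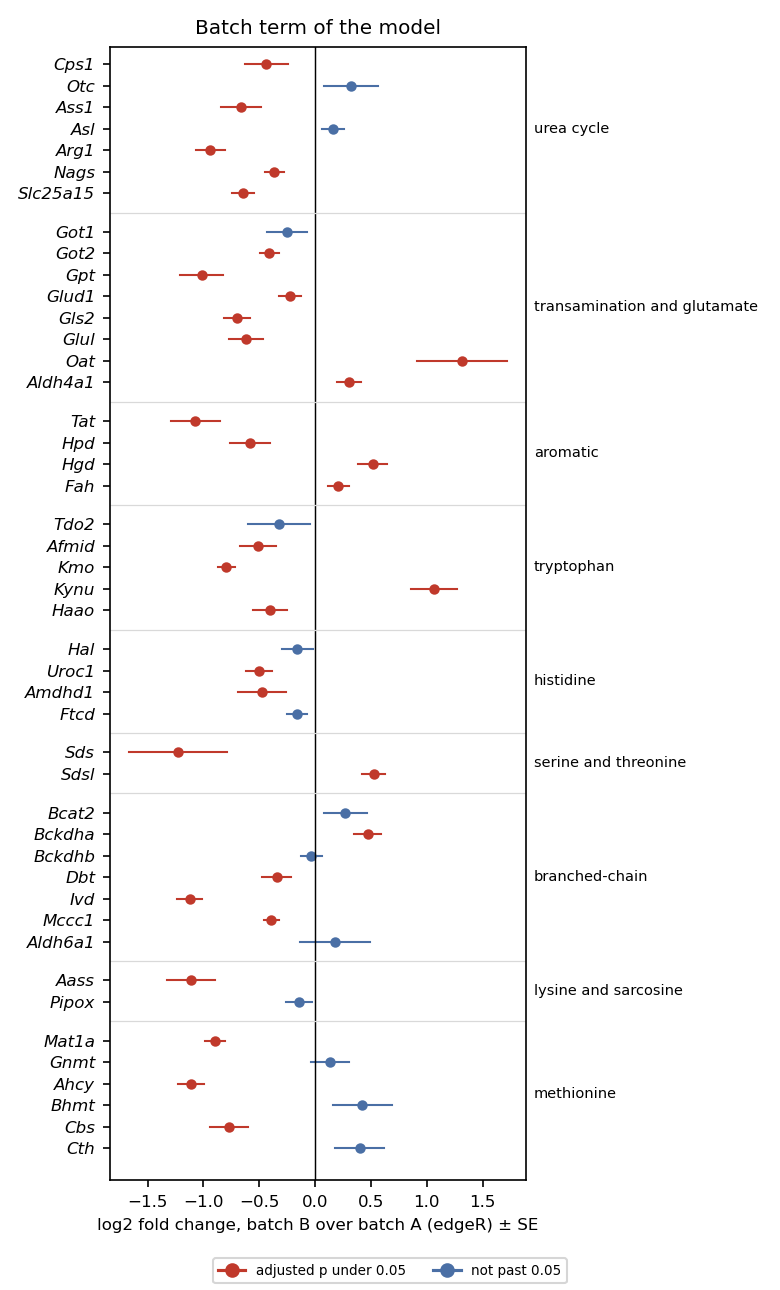
Log2 fold change (x axis) of batch B over batch A for each of the 45 members, grouped by enzyme class, from the edgeR fit of 69 libraries. Points are estimates with their standard errors, and 25 members lay below 0 and 7 above 0 at an adjusted p under 0.05.

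Genes around these paths were read from 5 further lists in RYGB against sham. Among 55 other amino acid breakdown enzymes tested, 1 rose and 1 fell, where 1.48% of all genes rose and 1.61% fell. Their median log2 fold change was -0.12, beside -0.01 for all genes tested. Acmsd, which turns the kynurenine path away from NAD, rose by 1.26 (edgeR adjusted p = 0.0106) at a low level of 2.99 ± 2.06 CPM in RYGB livers and 0.975 ± 0.768 CPM in sham livers (SD, n = 14 and 12). Ddc, the aromatic amino acid decarboxylase, fell by 0.83 on the log2 scale (edgeR adjusted p = 0.00141), to 29.7 ± 10.2 CPM in RYGB livers, against 53.4 ± 13.2 CPM in sham livers. Ddc was also lower in RYGB than in BWM livers (-0.96) and than in Lean livers (-0.86).

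Of 21 amino acid and ammonia transporters tested, 2 rose and 2 fell, where 1.48% of all genes rose and 1.61% fell. Rhbg rose by 1.06 (edgeR adjusted p = 0.0247) and Slc6a13, a carrier of taurine and GABA, by 0.56 (edgeR adjusted p = 0.0425). Slc43a1, a carrier of large neutral amino acids, fell by 0.70 on the log2 scale (edgeR adjusted p = 0.00755), and Slc38a4, a carrier of small neutral amino acids, fell by 0.48 (edgeR adjusted p = 0.0292). Slc38a4 averaged 866 ± 231 CPM in RYGB livers and 1137 ± 366 CPM in sham livers (SD, n = 14 and 12).

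Of 28 hormonal and transcriptional regulators, 2 rose and 0 fell, where 1.48% of all genes rose and 1.61% fell. Fkbp5, a glucocorticoid-induced cochaperone, averaged 30.4 ± 21.0 CPM in RYGB livers and 12.2 ± 4.21 CPM in sham livers (SD, n = 14 and 12), a log2 fold change of 1.08 (edgeR adjusted p = 0.000441). Ppargc1a, a coactivator of fasting genes, averaged 8.45 ± 4.56 CPM in RYGB livers and 3.25 ± 1.24 CPM in sham livers (SD, n = 14 and 12), a log2 fold change of 1.44 (edgeR adjusted p = 0.00106). Against saline, Ppargc1a had log2 fold changes of 1.21 with liraglutide, 0.92 with liraglutide+PYY and 0.36 with PYY. None passed the threshold (edgeR adjusted p = 0.563, 0.460 and 0.975). RYGB over sham minus liraglutide+PYY over saline was 0.53 for Ppargc1a (edgeR adjusted p = 0.593). So its rise after RYGB was not shown to differ from its fold change with liraglutide+PYY. Fkbp5 was also higher in RYGB than in BWM livers (0.95) and Lean livers (1.55).

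By liver zone, 0 of 15 periportal genes and 3 of 14 pericentral genes passed in RYGB against sham, where 3.09% of all genes did. The medians were 0.02 and 0.29, beside -0.01 for all genes tested. The periportal list holds 9 members and the pericentral list 2. Those that rose were Cyp1a2 (1.13, edgeR adjusted p = 0.00762), Slc13a3 (0.91, edgeR adjusted p = 0.0148) and Rhbg, and none is a member. In RYGB against Lean 7 of 14 pericentral genes rose, Glul among them, where 1.56% of all genes rose. Their median was 0.76, beside -0.005 for all genes tested. Of 15 periportal genes 1 fell, which was Sds, where 2.19% of all genes fell. Lean livers also differed from sham livers in these lists. In Lean against sham 2 of 14 pericentral genes lay above 0, with a median of -0.54, beside -0.01 for all genes tested. Slc13a3 fell there (-1.23, edgeR adjusted p = 0.0450), where 0.605% of all genes passed. The periportal list had 14 of 15 above 0 in Lean against sham, with a median of 0.26 and none past the threshold. None of the genes of the 5 lists passed in the 3 drug comparisons, where at most 0.00599% of all genes did. None passed in the interaction term either, where 0.024% of all genes did.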

How the data were processed

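Per the labels and the study's methods, poly(A) RNA of frozen liver was made into stranded libraries (TruSeq Stranded mRNA). The submitters' processing notes name bcl2fastq 2.20.0.422, cutadapt 2.5, STAR 2.7.2b and featureCounts 1.6.4 with the Rnor_6.0 assembly and annotation release 106. The deposited table holds estimated counts (expected counts) as the authors made them with featureCounts: 15.9% are not whole, and all were rounded here. Per the study's methods these are fractional read counts per gene. A read with several alignments or overlapping features added a fraction to each. No model of transcript abundance is described for them. Of the rows, 0 lack a gene name and 434 share a symbol with an earlier row, and 0 columns were left out.

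Counts were analysed in R 4.3.3 with edgeR 4.0.16: filterByExpr by group, TMM scaling, a robust quasi-likelihood fit of all 69 libraries with group and batch, and Benjamini-Hochberg adjustment over all genes tested. The study's methods used DESeq2. CPM are TMM-scaled, and log2 CPM for the principal components used a prior count of 2. Standard errors are the log2 fold change over the root of the F statistic. Libraries of a group are separate animals. The fit was also run on simulated counts with known fold changes. Those counts held no batch difference and no libraries apart, so that run says nothing of how either affects the fit.

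The members and the gene lists were chosen with earlier results of these data known. All 45 members are accounted for. Values in every library, or the lowest, median and highest, are given for members called in RYGB against sham and for the urea cycle, and of the listed genes outside the members at most the 10 with the smallest p among those called in RYGB against sham. Others were named after their values were seen. Alternatives were DESeq2 1.42.0 and its size factors, limma-voom (limma 3.58.1), no filter, no batch term, no robust estimation, 6 groups only, each batch alone, a replicate block, the libraries apart left out, and each library left out in turn.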

Additional observations from a re-analysis of the deposited data

Results flagged for a closer look

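Single libraries far from the rest of their group were sought for each member in the groups of 4 to 10 libraries, with Dixon's criterion at its 95% limit. Of 225 sets of values, 15 held such a library, where chance gives about 11.2, since about 1 in 20 sets is marked by chance.

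PYY replicate 5 accounted for 6 of them, all high. It had 3727 CPM of Cps1 (1106 to 1649 CPM in the other PYY livers), 2195 CPM of Otc (309 to 589 CPM), 2033 CPM of Oat (108 to 178 CPM), 3574 CPM of Tdo2 (419.9 to 685 CPM), 93.4 CPM of Dbt (33.3 to 45.9 CPM) and 3667 CPM of Aldh6a1 (244 to 404 CPM). This library is also one of the 6 that stood apart on the first principal component, and it had the lowest value of the 5 PYY livers for 23 of the 45 members. The same count over all genes was not made.

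In the liraglutide group, replicate 4, another of the 6, had 519.9 CPM of Bckdha (158 to 243 CPM in the others). Replicate 2 of that group had 280.4 CPM of Got1 (73.8 to 131 CPM) and 93.7 CPM of Afmid (58.8 to 68.6 CPM). Saline replicate 4 had 1263 CPM of Ass1 (517 to 825 CPM) and 156 CPM of Gpt (51.4 to 93.4 CPM). In the Lean group, replicate 5 had 84.0 CPM of Nags (67.6 to 70.8 CPM), and replicate 2 was low in Afmid with 39.4 CPM (80.0 to 102 CPM). BWM replicate 5 was low in 2 histidine genes, with 285 CPM of Uroc1 (333 to 372 CPM) and 300.03 CPM of Ftcd (391 to 444 CPM).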

How the results depend on the processing

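In RYGB against sham 2 members passed the threshold, both higher. The count was 1 with 6 groups only, 0 in batch B alone and 1 without a filter. It was 7 with limma-voom (5 higher and 2 lower), 4 without a batch term and 5 with a replicate block. Without RYGB replicates 12 to 14 it was 4. In RYGB against BWM the count was 1, and 2 with DESeq2, 4 in batch A alone, 4 with limma-voom, 0 without a batch term, 0 without a filter and 2 without the 6 libraries apart. In RYGB against Lean it was 5, and 8 in batch A alone and 8 with limma-voom (4 higher and 4 lower). It was 3 without a batch term and 3 with a replicate block. In Lean against sham it was 0, and 1 with limma-voom. Leaving out each library in turn gave 1 to 3, 0 to 2, 4 to 5 and 0 to 1 members in these 4 comparisons. The drug comparisons, BWM against sham, sham against saline and the interaction gave 0 under every alternative run. For RYGB, shares of all genes are given above in batch A alone and without the 6 libraries apart. For the other alternatives no such share is given, so those counts cannot be set against all genes.

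Across the 45 members, 31 log2 fold changes in RYGB against sham turned sign under at least 1 alternative other than leaving out single libraries, 7 of them without RYGB replicates 12 to 14, and 14 to 34 did so in the other comparisons. In these comparisons 0 of the turned values were past the threshold before or after. For members that a call or a drug value above turns on, the turned values were as follows. In RYGB against sham, batch B alone gave -0.067 for Ass1, -0.081 for Ahcy and -0.093 for Ftcd. In liraglutide+PYY against saline, batch A alone gave -0.44 for Oat and -0.017 for Aldh6a1, and leaving out the 6 libraries gave -0.19 for Oat, -0.041 for Aldh6a1 and -0.090 for Tdo2. In PYY against saline, leaving out the 6 gave -0.090 for Oat and -0.030 for Tdo2, and leaving out each library in turn gave -0.83 to 1.41 for Oat, -0.048 to 1.14 for Otc, -0.36 to 1.597 for Aldh6a1 and -0.24 to 1.11 for Tdo2. In the interaction, batch A alone gave 0.012 for Oat and leaving out the 6 gave 0.18 for Otc. In batch B against batch A, leaving out the 6 gave -0.040 for Oat, -0.35 for Otc, -0.89 for Aldh6a1 and -0.030 for Cth, of which Otc and Aldh6a1 were then past the threshold. The cause of these changes was not tested.

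Replicate numbers share no stated origin, and in none of 6 pairs of groups did every same-numbered pair correlate over 0.1. The correlation of deviations had a median of -0.013 over 12 RYGB and sham pairs (4 over 0.1, 2 best with their own number), 0.099 over 8 liraglutide+PYY and saline pairs (4 and 2), 0.056 over 8 BWM and sham pairs (2 and 3) and 0.11 over 6 Lean and sham pairs (3 and 3), and with 4 pairs each PYY and liraglutide against saline had 0 over 0.1. Liver pieces, 5 animals in the smallest groups and the unexplained batch limit what these counts show.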
